A study of Mus musculus with 12 samples.

Results

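The suppressors of cytokine signaling (SOCS) are 8 proteins that switch off cytokine receptors, and their 8 genes, Cish and Socs1 to Socs7, were taken by symbol from the 55335 genes measured by RNA-seq in mouse bone marrow-derived dendritic cells (BMDCs). All 8 were detected in all 12 libraries and all 8 were among the 14008 genes that passed the filter on low counts.

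When a cytokine binds its receptor, JAK kinases phosphorylate the receptor and STAT transcription factors, which move to the nucleus and switch on target genes, several SOCS genes among them. The SOCS proteins then bind phosphotyrosines through an SH2 domain, and recruit a ubiquitin ligase through the SOCS box at their carboxyl end, so that they form a negative feedback loop. CIS (the product of Cish) and SOCS2 act mainly on receptors that signal through STAT5, SOCS1 and SOCS3 can also block the JAK kinase itself, and SOCS4 to SOCS7, with longer amino-terminal parts, are linked more to receptor tyrosine kinases. In dendritic cells the GM-CSF that drives the culture signals through STAT5, and lipopolysaccharide (LPS), a bacterial ligand of TLR4, induces interferon beta, IL-6 and IL-10, which signal through other STATs.

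The cells were C57BL/6 bone marrow from CreER mice (WT) or CreER;CTCF fl/fl mice (KO), 8 to 12 weeks old and of both sexes, cultured with GM-CSF for 6 days, and CD11c+ cells were then selected with magnetic beads. The genotypes share a tamoxifen-inducible Cre at the Rosa26 locus, which is active in every cell type of the culture, and 4-hydroxytamoxifen given on the first day removes Ctcf, the gene of a DNA-binding protein that anchors chromatin loops. The sources do not make clear whether WT cultures also received it, so an effect of the drug and one of the deletion cannot be told apart. Each genotype was left untreated (WT, KO) or given 100 ng/ml LPS for 3 h (WTL, KOL), with 3 biological replicates in each of the 4 groups.

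Libraries held 12769773 to 16586334 expected counts. Ctcf, the check of the deletion, had 975 to 1051 normalized counts in WT, 745 to 886 in WTL, 516 to 570 in KO and 526 to 563 in KOL, so that Ctcf RNA was lower in the deleted cultures but not gone. Counts per gene show neither the protein level nor which exons the reads came from. The study found both mRNA and protein of CTCF depleted, and its binding to chromatin absent or much weaker in deleted cells. Unlike the untreated groups, the LPS groups scattered widely, with a biological coefficient of variation of 13.7% in WTL and 14.4% in KOL against 4.91% in WT and 2.62% in KO. WTL replicate 2 carried 6.96% of its counts on ribosomal RNA genes, where the other libraries had at most 1.61%; leaving those genes out changed no call of a SOCS gene. All 13 dendritic cell markers were detected. The 10 macrophage and monocyte markers, mostly Lyz2, summed to 25258 to 27354 TPM (a share of transcripts corrected for gene length) in WT and 45852 to 48348 in KO, the 10 neutrophil markers to 386 to 408 in WT and 208 to 239 in KO, and the B cell, T and NK cell, mast cell and basophil, and erythroid lists to at most 8.74 in any library. Of the 13 dendritic cell markers, 6 were called lower in KO than in WT (Cd209a, Flt3, Ccr7, H2-Aa, H2-Ab1 and H2-Eb1), 2 higher (Itgax and Batf3) and 5 were not called. The rise of the macrophage and monocyte sum was carried by Lyz2 (25371 to 45976 TPM); 3 of that list were called higher and 5 lower (Adgre1, Mertk, Fcgr1, Cd14 and C5ar1). The part of these marker differences in the SOCS results was not tested, and in bulk RNA fewer cells of a type and less RNA per cell cannot be told apart.

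The promoters of Cish, Socs1 and Socs3 are shown because these genes rose most with LPS in WT cells and because each window holds a short element named below. Each runs from 250 bases before to 50 bases after the RefSeq start on GRCm38.p6, 5′ to 3′ on the gene's strand, with matches in capitals. Cish lies at chr9:107296409-107296708 (+), Socs1 at chr16:10785487-10785786 (-) and Socs3 at chr11:117969317-117969616 (-).
Cish: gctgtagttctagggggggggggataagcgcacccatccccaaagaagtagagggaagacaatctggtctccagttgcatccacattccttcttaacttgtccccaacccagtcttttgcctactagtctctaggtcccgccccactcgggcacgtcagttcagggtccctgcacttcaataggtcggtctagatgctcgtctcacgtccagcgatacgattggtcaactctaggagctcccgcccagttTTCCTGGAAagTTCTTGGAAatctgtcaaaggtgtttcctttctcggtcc
Socs1: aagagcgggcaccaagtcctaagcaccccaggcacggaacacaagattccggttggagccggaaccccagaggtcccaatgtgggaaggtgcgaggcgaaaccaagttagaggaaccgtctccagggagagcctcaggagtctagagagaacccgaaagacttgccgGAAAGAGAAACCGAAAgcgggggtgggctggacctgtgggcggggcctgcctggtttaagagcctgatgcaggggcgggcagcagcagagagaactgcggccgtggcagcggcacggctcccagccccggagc
Socs3: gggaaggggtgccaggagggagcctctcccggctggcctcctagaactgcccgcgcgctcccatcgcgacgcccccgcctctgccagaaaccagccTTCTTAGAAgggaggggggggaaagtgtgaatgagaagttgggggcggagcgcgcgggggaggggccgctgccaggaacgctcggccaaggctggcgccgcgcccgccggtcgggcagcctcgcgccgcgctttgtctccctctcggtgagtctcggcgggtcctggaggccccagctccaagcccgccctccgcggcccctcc

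The capitals in Cish and Socs3 mark TTCNNNGAA, the palindrome bound by STAT dimers. Cish holds it at bases 251 to 259 and 262 to 270 of its window, a pair that begins at the start base, and Socs3 holds it at bases 97 to 105. The capitals in Socs1 mark GAAA repeated after a gap of NN, the core bound by interferon regulatory factors, at bases 168 to 177 and 174 to 183, which overlap. On either strand, TTCNNNGAA occurred in 8.30% and the GAAA repeat in 3.44% of 32851 RefSeq promoters of the same length. Of the family, RefSeq promoters for Cish, Socs1, Socs3 and Socs4 were matched by symbol, and the Socs4 window held neither element. GGG and CC around NNNNN, the loose NF-kB consensus, was searched too and is not in capitals: all 4 windows held it, as did 50.8% of all promoters. A match describes the letters only.

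The genes lie on separate chromosomes except Socs3 and Socs7, both on chromosome 11. In mm10 with GENCODE M21, Cish spans chr9:107296026-107302784, Socs1 chr16:10782240-10785536, Socs2 chr10:95385362-95417180, Socs3 chr11:117966079-117970047, Socs4 chr14:47276931-47296102, Socs5 chr17:87107679-87137839 and Socs7 chr11:97362551-97398542, and Socs6 is on chromosome 18. All 8 are protein coding. Cish overlaps an antisense gene, Gm17041, and a pseudogene, Gm17040, on the other strand. Socs6 overlaps 3 processed pseudogenes, which lie on both strands. The counts of Cish and Socs6 are less certain, since the strand setting of the counting is not given. For overlaps on the same strand, no strand setting separates the reads.

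Untreated WT cells had all 8 transcripts at modest levels. On the TPM scale, which corrects for length, the order of levels in WT was Socs6 (35.6 ± 0.989, SD, n = 3), Socs2 (33.6 ± 1.80), Cish (21.3 ± 3.53), Socs4 (14.1 ± 0.721), Socs3 (13.4 ± 0.733), Socs7 (8.83 ± 0.886), Socs5 (7.47 ± 0.428) and Socs1 (1.05 ± 0.142). The replicates of Socs6 and Socs2 overlapped, as did those of Socs4 and Socs3 and those of Socs7 and Socs5, so these neighbours were not separated. Socs1 stood below every other member in all 6 untreated libraries.

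LPS put Socs3 at the top. In WTL the order of TPM was Socs3 (193 ± 5.98), Cish (54.6 ± 3.02), Socs2 (53.3 ± 7.77), Socs6 (20.7 ± 1.62), Socs1 (14.5 ± 2.30), Socs7 (10.96 ± 0.891), Socs4 (7.35 ± 0.893) and Socs5 (3.97 ± 0.427), where Cish and Socs2, and Socs1 and Socs7, overlapped. The summed TPM of the family was 135 ± 0.422 in WT and 358 ± 17.1 in WTL, and Socs3 alone made up 53.9% ± 0.908 of the WTL sum against 9.87% ± 0.547 in WT.

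In KO cells the order was different. Socs2 led at 34.7 ± 1.28 TPM, followed by Socs4 (21.1 ± 0.233), Socs6 (19.0 ± 1.07), Socs7 (17.9 ± 1.17), Socs3 (15.9 ± 0.716), Cish (12.1 ± 1.46), Socs5 (4.78 ± 0.259) and Socs1 (1.23 in each library), and of these neighbours Socs6 and Socs7 overlapped. In KOL it was Socs3 (112 ± 2.43), Socs2 (82.4 ± 4.34), Cish (39.4 ± 2.77), Socs7 (16.2 ± 2.54), Socs6 (12.5 ± 0.472), Socs1 (11.2 ± 4.06), Socs4 (10.8 ± 0.990) and Socs5 (2.56 ± 0.0819), where Socs6, Socs1 and Socs4 overlapped in sequence. The family sum was 127 ± 4.26 in KO and 287 ± 8.06 in KOL, and Socs3 made up 38.9% ± 0.655 of the KOL sum. The levels and shares were described without a test.

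**Figure D1:**
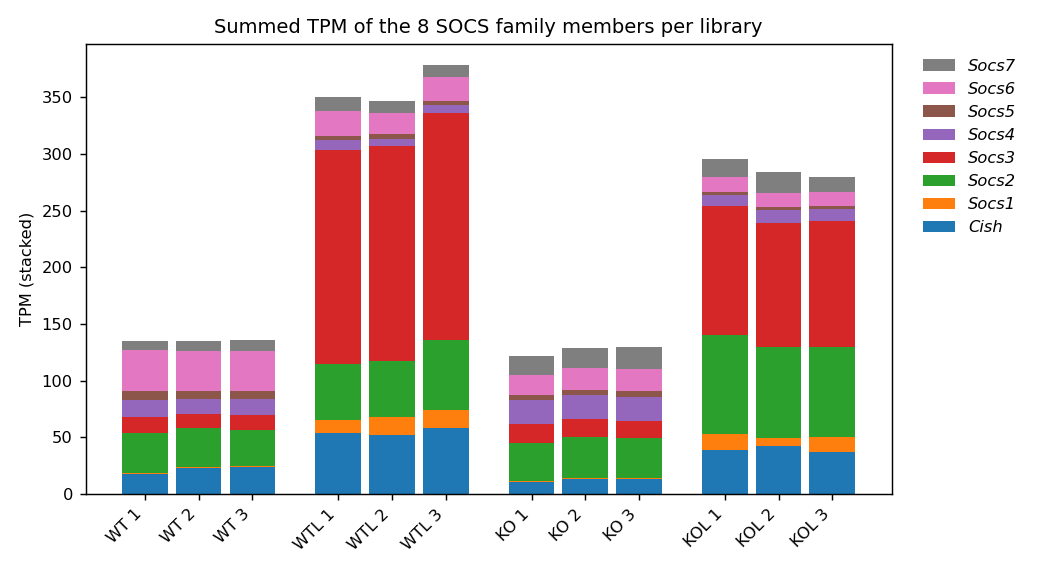
Stacked bars give the TPM of each of the 8 SOCS genes in each of the 12 libraries (x axis: group and replicate; y axis: TPM). The LPS-treated libraries are taller, mainly through Socs3, which reaches 189 to 200 TPM in WTL and 109 to 114 in KOL, and the Socs2 segment is tallest in KOL.

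The differences were tested on normalized counts, which are comparable between groups of one gene. A gene was called when the edgeR quasi-likelihood test over all genes gave a Benjamini-Hochberg adjusted p below 0.05 (the edgeR adjusted p below) and the fold passed the study's cutoff: 2 in the LPS comparisons, 1.3 between KO and WT, and 1.5 between KOL and WTL. LPS in WT cells raised 4 of the 8 genes, Socs3, Socs1, Cish and Socs2, and lowered none, where 12.6% of all tested genes were called higher and 9.99% lower (22.6% together). The other 4 also passed the adjusted p with folds under 2, which makes 8 of 8 beside 60.2% of all genes, and all 8 had groups without overlap, as did 65.1% of all genes. The median log2 change of the 8 genes was 1.03 and that of all genes -0.02. In CTCF-deficient cells the counts were also 4 and 0, against 15.1% and 13.0% of all genes (28.1% together), all 8 passed the adjusted p against 67.5%, all 8 had groups without overlap against 71.2%, and the medians were 1.05 and -0.02.

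Loss of CTCF without LPS raised Socs7 and Socs4 and lowered Socs6 and Socs5. Of all tested genes, 17.3% were called higher and 17.2% lower, and 4 of 8 members stands beside 34.5% in either direction. Without the cutoff, 6 of 8 passed the adjusted p, beside 44.6% of all genes. All 8 genes had KO and WT libraries that did not overlap, against 64.2% of all genes. After LPS, KOL against WTL, Socs2, Socs7 and Socs4 were called higher and Socs3 and Socs6 lower, 5 of 8 beside 25.0% of all genes (12.5% in each direction), 6 of 8 passed the adjusted p alone, beside 44.7%, and 6 of 8 did not overlap, beside 46.3%. The median log2 change of the members was 0.20 without LPS and -0.28 with it, and those of all genes were -0.01 and -0.03. WT libraries serve as controls in the comparisons of WTL and of KO, and each other group is likewise shared by a pair of comparisons.

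**Figure D2:**
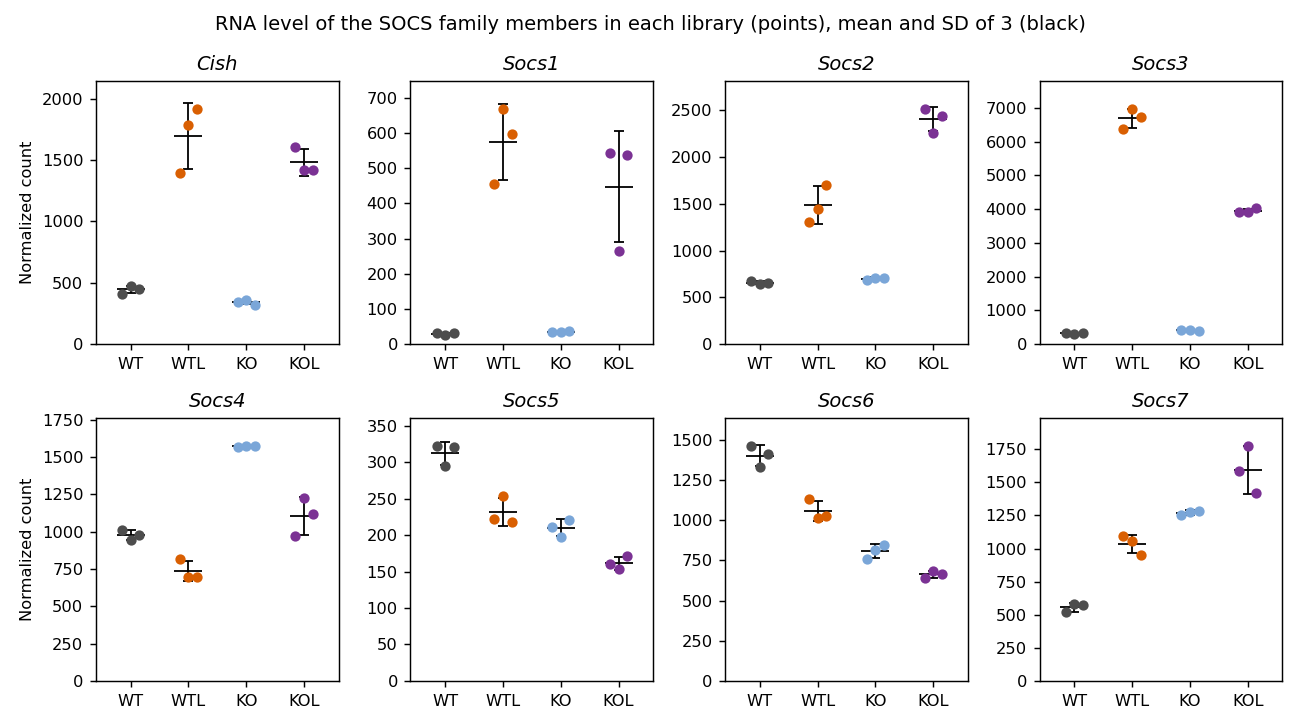
Each panel plots 1 gene; points are the normalized counts of the 12 libraries by group, and black bars the mean and SD of 3 replicates, on a linear axis from 0. Cish, Socs1, Socs2 and Socs3 are high in both LPS groups, Socs4 and Socs7 are higher in KO than in WT, and Socs5 and Socs6 are highest in WT.

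Socs3, whose protein docks on the shared receptor chain of the IL-6 family (Il6st) and on the G-CSF receptor, rose with LPS in WT cells by a fold not separated from that of Socs1, the other most responsive member. It had 335, 309 and 322 normalized counts in WT, and 6385, 6957 and 6726 in WTL. In KO it had 435, 408 and 388, and in KOL 3920, 3929 and 4019. Every LPS library was far above every untreated one, but all 3 KOL libraries lay below all 3 WTL libraries, while the KO libraries lay above the WT ones.

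Socs3 thus rose 20.8-fold with LPS in WT (95% confidence interval 18.6 to 23.2, edgeR adjusted p = 8.5e-15) and 9.63-fold in CTCF-deficient cells (8.65 to 10.7, edgeR adjusted p = 7e-14). The test of the difference between these responses gave a log2 value of -1.11 (SE 0.10, edgeR adjusted p = 6e-06), which is 0.464 times the WT response (0.402 to 0.536). After LPS, KOL held 59.1% of the WTL level (log2 -0.76, SE 0.06, edgeR adjusted p = 3.5e-07). Without LPS, KO was at log2 0.35 (SE 0.07, edgeR adjusted p = 0.0012), a fold of 1.27, under the cutoff of 1.3; leaving out KO replicate 3 put it at log2 0.39, past the cutoff.

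Socs1 encodes the main brake on interferon signaling, and its protein blocks JAK1, JAK2 and TYK2 directly. The normalized counts were 31.2, 25.2 and 31.1 in WT and 456, 667 and 598 in WTL. They were 35.9, 35.5 and 36.1 in KO and 543, 264 and 536 in KOL. The LPS libraries stood apart from the untreated ones, and KOL replicate 2 had less than its companions, so that KOL and WTL overlapped.

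The rise of Socs1 was 19.7-fold in WT (13.1 to 29.6, edgeR adjusted p = 6.1e-09) and 12.5-fold in CTCF-deficient cells (8.34 to 18.7, edgeR adjusted p = 2.8e-08). Neither the difference between these responses (log2 -0.66, interval -1.58 to 0.27, edgeR adjusted p = 0.33) nor KOL against WTL (log2 -0.36, interval -0.79 to 0.08, edgeR adjusted p = 0.17) passed the test. Without KOL replicate 2 the latter was -0.10. The interval for KO against WT, -0.52 to 1.11 on the log2 scale (edgeR adjusted p = 0.56), was wide at the 30 to 40 expected counts of Socs1 in each untreated library.

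Cish, the prototype STAT5 target of the family, had 412, 475 and 449 normalized counts in WT and 1396, 1786 and 1914 in WTL. It had 345, 362 and 323 in KO and 1607, 1422 and 1416 in KOL. The LPS groups overlapped each other, and the KO libraries lay below the WT ones.

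Cish rose 3.81-fold with LPS in WT (3.24 to 4.49, edgeR adjusted p = 1.7e-09) and 4.32-fold in CTCF-deficient cells (3.65 to 5.10, edgeR adjusted p = 7.2e-10), and the responses were not separated (log2 0.18, interval -0.15 to 0.51, edgeR adjusted p = 0.47). In KO against WT it was at log2 -0.38 (SE 0.11, edgeR adjusted p = 0.014), just under the cutoff of 1.3 (77.0% of WT). It crossed the cutoff in DESeq2 (log2 -0.39, adjusted p = 0.0055) and when any of WT replicates 1 and 3 or KO replicates 1 and 2 was left out (log2 -0.38 to -0.47). In TPM the fall was larger, from 21.3 to 12.1 (log2(TPM + 1) difference -0.76, limma adjusted p = 0.00058). RSEM's effective length for Cish, which depends on the mix of isoforms assigned, had a mean of 2026 bases in WT and 2564 in KO. The libraries varied widely and overlapped, at 1802 to 2327 bases in WT and 2213 to 2937 in KO. In KOL against WTL the count difference was log2 -0.20 (interval -0.42 to 0.03, edgeR adjusted p = 0.14), at mean effective lengths of 2466 and 2054 bases, where the libraries also overlapped. The part of isoform use in these differences was not tested.

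Socs2, best known for limiting growth hormone signaling through STAT5, responded more to LPS in CTCF-deficient than in WT cells. The normalized counts were 678, 639 and 659 in WT and 1304, 1444 and 1701 in WTL. They were 689, 710 and 706 in KO and 2509, 2257 and 2440 in KOL. All KOL libraries were above all WTL libraries, whereas WT and KO lay close together without overlap.

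Socs2 rose 2.25-fold in WT (1.97 to 2.58, edgeR adjusted p = 4.5e-08) and 3.42-fold in CTCF-deficient cells (2.99 to 3.92, edgeR adjusted p = 4.2e-10). The difference of the responses was log2 0.60 (SE 0.13, edgeR adjusted p = 0.0044), or 1.52 times the WT response (1.26 to 1.83), and KOL was at 162% of WTL (log2 0.69, SE 0.09, edgeR adjusted p = 1.6e-05). The KOL against WTL call was lost when the fold was tested against 1.5 itself (glmTreat adjusted p = 0.2). KO against WT did not pass the test (log2 0.09, interval -0.10 to 0.28, edgeR adjusted p = 0.44). The WTL against WT call rests on the cutoff: it was lost when the fold was tested against 2 itself (adjusted p = 0.072) and on the log2(TPM + 1) scale (0.64). On that scale the median of all genes was -0.44, and the call was kept when TPM was scaled by TMM factors.

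**Figure D3:**
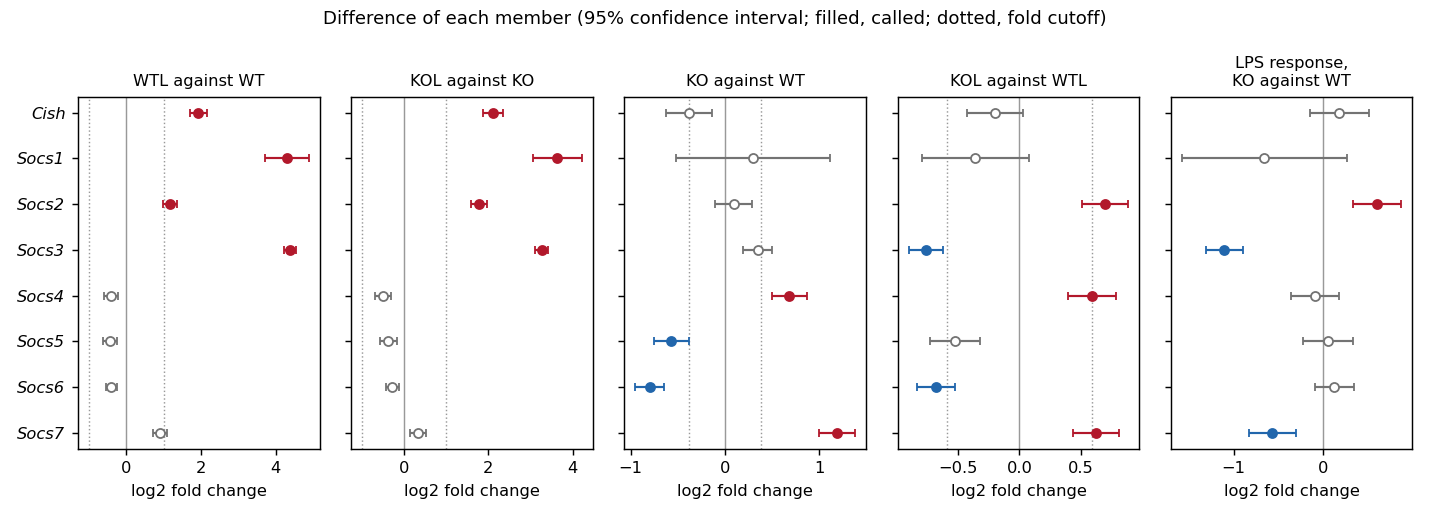
Points are log2 fold changes of the 8 genes in the 4 comparisons, and in the last panel the difference between the LPS responses of KO and WT cells; bars are 95% confidence intervals, filled points were called, dotted lines are fold cutoffs, and each panel has its own x axis. Cish and Socs1 to Socs3 lie between 1.17 and 4.38 in both LPS panels, and in the last panel Socs3 and Socs7 lie below 0 and Socs2 above it.

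Socs7, whose protein binds insulin receptor substrates and the adaptor NCK, had the largest difference of the family between KO and WT. The normalized counts were 519, 578 and 574 in WT and 1255, 1276 and 1285 in KO. They were 1091, 1057 and 955 in WTL and 1586, 1775 and 1417 in KOL. The groups did not overlap in any comparison, with WT lowest and KOL highest.

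Socs7 rose 2.28-fold in KO (2.00 to 2.60, edgeR adjusted p = 7.4e-08) and was 1.54-fold higher in KOL than in WTL (1.35 to 1.75, edgeR adjusted p = 4.3e-05), a call that was lost without WTL replicate 3 (log2 0.57) or KOL replicate 2 (log2 0.54). With LPS it was 1.86-fold higher in WTL than in WT (edgeR adjusted p = 7.7e-07), under the cutoff of 2. KOL was 1.25-fold higher than KO (edgeR adjusted p = 0.004), a direction that turned on the log2(TPM + 1) scale (-0.14). The responses differed by log2 -0.57 (SE 0.12, edgeR adjusted p = 0.0059), which did not hold on the log2(TPM + 1) scale (-0.43, limma adjusted p = 0.13).

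Socs4, a regulator of the epidermal growth factor receptor, had 1014, 943 and 978 normalized counts in WT and 1567, 1575 and 1571 in KO. It had 816, 698 and 695 in WTL and 972, 1224 and 1121 in KOL. KO was highest and WTL lowest, and the groups did not overlap within any comparison.

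Socs4 rose 1.61-fold in KO (1.41 to 1.83, edgeR adjusted p = 1.9e-05). In KOL it was higher than in WTL by log2 0.59 (interval 0.39 to 0.78, edgeR adjusted p = 1e-04), a call at the edge of the cutoff that was lost without WTL replicate 2 or 3 or KOL replicate 2 or 3 (log2 0.51 to 0.58). With LPS it was at log2 -0.41 in WT and -0.51 in CTCF-deficient cells (edgeR adjusted p = 0.0011 and 0.00014), folds below 2.

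Socs6, whose protein binds the stem cell factor receptor KIT, had 1462, 1333 and 1412 normalized counts in WT and 762, 817 and 846 in KO. It had 1130, 1016 and 1029 in WTL and 642, 683 and 663 in KOL. The libraries of both deleted groups were below all libraries of both WT groups.

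Socs6 fell in KO to 57.6% of WT (log2 -0.80, SE 0.07, edgeR adjusted p = 5.3e-07) and in KOL to 62.6% of WTL (log2 -0.67, SE 0.07, edgeR adjusted p = 3.8e-06). With LPS it was at log2 -0.41 in WT and -0.29 in CTCF-deficient cells (edgeR adjusted p = 2e-04 and 0.0032), under the cutoff. The KOL against WTL call of Socs6 was lost when the fold was tested against 1.5 itself (glmTreat adjusted p = 0.21).

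Socs5, which acts on the epidermal growth factor receptor and, in lymphocytes, on IL-4 signaling, had the lowest mean TPM after Socs1 in untreated cells. In WT it was not separated from Socs7. It had 322, 294 and 321 normalized counts in WT and 212, 198 and 221 in KO. It had 223, 253 and 218 in WTL and 160, 153 and 171 in KOL. The order was WT, then the overlapping WTL and KO, then KOL.

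Socs5 fell in KO to 67.3% of WT (log2 -0.57, SE 0.09, edgeR adjusted p = 9e-05). KOL was at 69.8% of WTL (log2 -0.52, edgeR adjusted p = 0.00045), a fold of 1.43 under the cutoff of 1.5. With LPS it was at log2 -0.43 in WT and -0.38 in CTCF-deficient cells (edgeR adjusted p = 0.00066 and 0.0024), also under the cutoff.

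Over all tested genes the LPS response differed with CTCF loss for 17.4% (8.70% higher, 8.75% lower), and for 3 of the 8 members, Socs2 in the higher and Socs3 and Socs7 in the lower direction. For Socs4, Socs5 and Socs6 the log2 differences between the responses were -0.10 (interval -0.36 to 0.17), 0.05 (-0.22 to 0.33; -0.026 on the TPM scale with TMM factors) and 0.12 (-0.10 to 0.34), with edgeR adjusted p = 0.66, 0.83 and 0.47.

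The genes around each member were described next, because CTCF anchors chromatin loops that can join promoters to distant elements. Of the tested genes starting within 100 kb, 2 of 4 were called in KO against WT near Cish, 0 of 1 near Socs1, 0 of 3 near Socs2, 1 of 2 near Socs3, 3 of 5 near Socs4, 2 of 3 near Socs5, 0 of 1 near Socs6 and 1 of 4 near Socs7. In all this is 9 of 23 (39.1%), close to the 34.5% of all tested genes.

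Near Socs4, Wdhd1, a replication factor gene starting 0.1 kb away, went from 439 to 936 normalized counts (log2 1.09, edgeR adjusted p = 9.5e-08), Mapk1ip1l, 21.3 kb away, from 1561 to 3487 (log2 1.16, edgeR adjusted p = 1.3e-07), and Gch1, the first enzyme of tetrahydrobiopterin synthesis, from 495 to 733 (log2 0.57, edgeR adjusted p = 0.00042). These genes and Socs4 rose together in KO, while with LPS in WT Wdhd1 fell (log2 -1.21) and Gch1 rose (log2 1.74). Lgals3, 90.8 kb away and far more abundant, was at log2 -0.18 (edgeR adjusted p = 0.12).

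Near Socs7, Gpr179, 10.5 kb away, went from 13.3 to 103 normalized counts (log2 2.94, edgeR adjusted p = 7.5e-08). The neighbours Npepps, Mrpl45 and Arhgap23 were at log2 0.23, -0.10 and -0.25 and were not called. Near Socs5, Pigf, a gene of glycosylphosphatidylinositol anchor synthesis, fell (log2 -0.57, edgeR adjusted p = 0.0051) and the pseudogene Gm5499, with few counts, rose (log2 0.97, edgeR adjusted p = 0.047), and near Socs3, Tha1 rose (log2 1.70, edgeR adjusted p = 1.1e-05) and Pgs1 did not pass the test (log2 0.17, edgeR adjusted p = 0.085). Near Cish, Mapkapk3, 6.1 kb away, was at log2 0.23 in KO against WT and 0.20 with LPS in WT, under the cutoffs. Hemk1, 42.3 kb away, rose with LPS in WT (log2 1.38, edgeR adjusted p = 1.9e-08), and Dock3 and 6430571L13Rik, both with few counts, rose in KO (log2 2.26 and 1.25, edgeR adjusted p = 0.00011 and 0.00029).

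**Figure D4:**
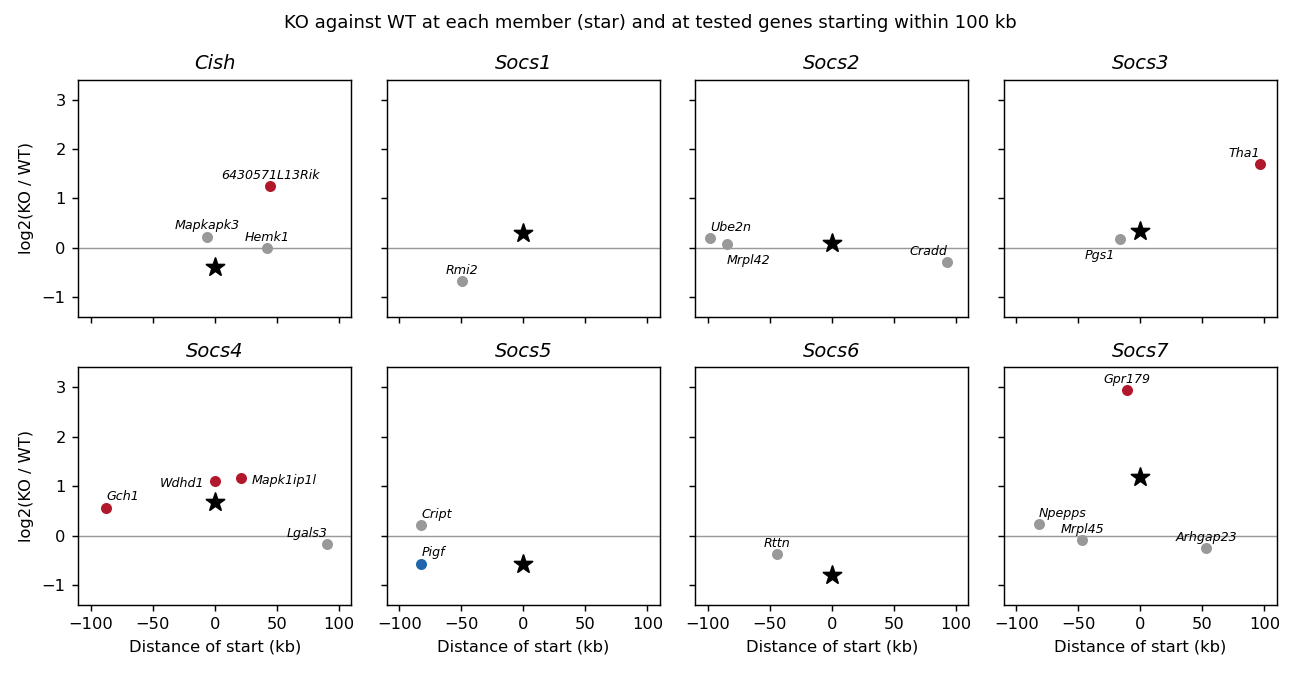
Each panel plots the log2 KO to WT ratio (y axis) of 1 member (star, at 0) and of the tested genes that start within 100 kb with a mean of at least 20 normalized counts in WT or KO (x axis, distance of their start in kb, positive downstream of the member's start; red called higher, blue called lower, grey not called). Gpr179 beside Socs7 stands highest at 2.94, and Wdhd1 and Mapk1ip1l lie close to Socs4.

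The pathway that the family acts on was described from lists of named genes. Beside their counts stand the shares of all tested genes called higher and lower, 12.6% and 9.99% with LPS in WT, 15.1% and 13.0% with LPS in CTCF-deficient cells, 17.3% and 17.2% in KO against WT and 12.5% each in KOL against WTL. Of 11 JAK and STAT genes, LPS raised 5 in WT (median log2 0.91), led by Stat5a, which went from 1715 to 10840 normalized counts (log2 2.66, edgeR adjusted p = 8.4e-12). In KO against WT, 4 were lower and none higher (median -0.07), with Stat4, the transducer of IL-12, going from 713 to 326 (log2 -1.13, edgeR adjusted p = 6.5e-07). In KOL against WTL none of the 11 was called by edgeR with the cutoff, and Stat3 passed the adjusted p with a fold just under it, at log2 0.58 (edgeR adjusted p = 4.7e-05). The LPS response of Jak2, Stat2, Stat3 and Stat4 was higher in CTCF-deficient cells, and that of Stat5a did not pass the test (log2 -0.18, edgeR adjusted p = 0.36).

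Of 14 other STAT5 target genes, LPS raised 8 and lowered Myc in WT, and in KO against WT 0 were higher and 9 lower (median log2 -0.55). Cish (log2 -0.38) and Socs2 (log2 0.09) were not called in that comparison. A part of STAT5 in these differences was not tested. Ccnd1, a cyclin of the G1 phase, went from 376 to 61.6 normalized counts in KO (log2 -2.61, edgeR adjusted p = 2.3e-10). After LPS, 3 of the 14 were lower in KOL than in WTL, Ccnd1, Bcl6 and Il2ra. Ccnd2, with a rise of log2 4.45 in WT and 4.42 in CTCF-deficient cells, responded most to LPS.

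Of 16 tested genes of the 24 listed cytokines that signal through JAK and STAT, LPS raised 14 in WT and 15 in CTCF-deficient cells, with Il6 at 70.4 normalized counts in WT, 17727 in WTL, 12.04 in KO and 9024 in KOL. Il6 was lower in KOL than in WTL (log2 -0.97, edgeR adjusted p = 7.7e-05), as were Il10, Il12a and Il12b, and Csf1 was higher (4645 against 2308 normalized counts, edgeR adjusted p = 2e-08). Il10 and Il6, whose receptors activate STAT3, were lower in the same libraries in which Socs3 was lower. In KO against WT, 3 of the 16 were higher and 9 lower, several at few counts. Il6 was among the lower (log2 -2.54, edgeR adjusted p = 7.6e-06), while Socs3 was at log2 0.35 (edgeR adjusted p = 0.0012). Lif, Osm and Csf3 of the same list were not called in KOL against WTL (log2 0.12, 0.26 and 0.49, edgeR adjusted p = 0.42, 0.16 and 0.14). The part of these cytokines in the Socs3 result was not tested.

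Of the 28 tested of 34 receptor chains, 9 were higher and 4 lower in KO than in WT, where 17.3% and 17.2% of all genes were. The GM-CSF receptor chains Csf2ra and Csf2rb were at log2 0.01 and 0.03 in that comparison (edgeR adjusted p = 0.96 and 0.81). In KOL against WTL, Csf2ra was called lower (log2 -0.64, edgeR adjusted p = 3.5e-05). Csf2rb was at log2 -0.30 there (edgeR adjusted p = 0.02), under the cutoff. The LPS response of Csf2ra was lower in CTCF-deficient cells (log2 -0.65, edgeR adjusted p = 0.0024). For Csf2rb the difference of the responses did not pass the test (log2 -0.33, edgeR adjusted p = 0.11). In KO against WT, among chains with at least 100 normalized counts on average, Lifr rose most (log2 2.02, edgeR adjusted p = 4.2e-09). Il2ra fell most among them (log2 -1.42, edgeR adjusted p = 8.9e-07), and the less abundant Flt3 fell further (131 to 32.5 normalized counts, edgeR adjusted p = 3.8e-06). Il6ra, the binding chain for IL-6, fell with LPS in WT (log2 -2.78) and in CTCF-deficient cells (log2 -3.56).

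Of 10 subunits of the ubiquitin ligases that SOCS proteins recruit, Cul5, the scaffold, fell in KO (447 to 286 normalized counts, log2 -0.64, edgeR adjusted p = 0.00011) and in KOL against WTL (log2 -0.59, edgeR adjusted p = 0.00028), and Ube2f rose in KO (log2 0.52, edgeR adjusted p = 3.1e-05). With LPS in WT, 0 passed the cutoff of 2, but their median log2 change was 0.45 against -0.02 for all genes. The values ran from Rnf7 (log2 -0.07, edgeR adjusted p = 0.53) to Ube2f (log2 0.88, edgeR adjusted p = 7.5e-08). Of 16 other inhibitors of JAK and STAT signaling, 3 were higher and 1 lower in KO, a share below the 34.5% of all genes called; Ptpn1, a phosphatase of JAK2 and TYK2, rose from 4078 to 12511 (log2 1.62, edgeR adjusted p = 2e-10) and was higher in KOL than in WTL (7659 against 3110, edgeR adjusted p = 2.3e-09), and Usp18, an inhibitor of the interferon receptor, fell in KO (452 to 226 normalized counts, edgeR adjusted p = 5.3e-07) and rose with LPS by log2 4.21 in WT and 5.09 in CTCF-deficient cells. Of 10 tested genes of signaling proteins described as partners of SOCS1 or SOCS3, not all of them in TLR signaling, 2 were higher and 4 lower in KO. The largest rise was that of Ptk2 (log2 2.32, edgeR adjusted p = 7.6e-11) and the largest fall that of Map3k5 (log2 -0.59, edgeR adjusted p = 5e-05).

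The genes most like each member were ranked by Pearson r of log2 CPM over the 12 libraries, among 9330 genes with at least 100 normalized counts on average; the libraries fall into 4 groups, and with this many genes high values arise readily. Cdkn1a, a cell cycle inhibitor that is also on the STAT5 target list, was most like Cish (r = 0.9986), Tapbp, of MHC class I peptide loading, most like Socs1 (0.9961), Trim35 (0.995) and then Stat3 (0.9942) most like Socs2, and Cmtm6 most like Socs3 (0.9979). Fcgr3, an activating Fc receptor, was most like Socs4 (0.994), Megf9 most like Socs5 (0.9733), Atad5 most like Socs6 (0.9891) and Piezo1, a mechanosensitive channel, most like Socs7 (0.9894). In WT, WTL, KO and KOL, Trim35 had 1085, 2006, 1159 and 3312 normalized counts and Stat3 2695, 5650, 3129 and 8423. Both had the order of groups of Socs2, which choosing genes by correlation over the same libraries makes likely.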

How the data were processed

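RNA-seq libraries of 12 BMDC cultures were placed in 4 groups by their labels, with 3 replicates each. Per the labels, reads were aligned to mm10 with STAR 2.5.1, and genes were quantified with RSEM. The authors deposited expected counts, which are estimated counts that need not be whole, and TPM, which they scaled to the same sum in every library. The sources name poly(A) selection with a stranded kit in one place and depletion of ribosomal RNA in another.

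Expected counts were rounded, normalized by TMM and filtered with filterByExpr in edgeR 4.0.16 (R 4.3.3), and 1 quasi-likelihood fit of all 12 libraries was tested, with Benjamini-Hochberg adjustment over 14008 genes. A normalized count is a count per effective library size, times the mean effective size. Errors are SDs over 3 libraries, and their totals limit the precision of genes with few counts. Cultures were described as biological replicates, but no label ties them to animals, so p-values measure the spread between these cultures, pooled over the 4 groups. Because the LPS groups scattered more, intervals can be too wide for KO against WT and too narrow for KOL against WTL. For Cish in KO against WT the SE was 0.11 in this fit and 0.067 on those libraries alone. DESeq2 1.42.0, limma 3.58.1 on log2(TPM + 1) and other alternatives were tried, and the script was tested on simulated data. Replicate numbers recur in all groups, but the labels tie them to no shared animal or day.

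Named genes were the 8 members, Ctcf, in each list and comparison the largest called rise and fall with at least 100 normalized counts on average, the genes most correlated with each member, and tested genes starting within 100 kb; Jak2, Stat3, Stat5a, Csf2ra, Csf2rb and other list members were named after their values were seen. The members and lists were chosen with earlier results of these data known. The values of some listed genes are not reported here. Gene positions are GENCODE M21, to which 55154 of 55335 identifiers matched without version and 54587 with it.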

Additional observations from a re-analysis of the deposited data

Results flagged for a closer look

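The LPS response of 3 SOCS genes differed between genotypes by the interaction test of edgeR with Benjamini-Hochberg adjustment. Socs3 was induced less in CTCF-deficient than in WT cells, with a log2 difference of -1.11 (SE 0.10, adjusted p = 6e-06). Socs7 also responded less, by log2 -0.57 (SE 0.12, adjusted p = 0.0059), and Socs2 responded more, by log2 0.60 (SE 0.13, adjusted p = 0.0044). Leaving out each of the 12 libraries in turn gave -1.15 to -1.01 for Socs3, -0.65 to -0.45 for Socs7 and 0.52 to 0.71 for Socs2, and all 3 stayed past the threshold in each of these fits. On the TPM scales the Socs7 difference did not pass (-0.43, -0.46 with 0.1 added, -0.43 without a filter and -0.48 with TMM factors; limma adjusted p = 0.13, 0.13, 0.21 and 0.086), whereas those of Socs2 and Socs3 did. The macrophage and monocyte marker sum, mostly Lyz2 while 5 of the 10 markers were called lower in KO, 45852 to 48348 TPM in KO against 25258 to 27354 in WT, was 18551 to 26152 in KOL and 14373 to 19181 in WTL, and its part in these differences was not tested.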

How the results depend on the processing

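The 5 comparisons were repeated under DESeq2, the libraries of the comparison alone, DESeq2 size factors, no filter, a minimum of 10 counts in each library, a replicate block, limma on log2(TPM + 1) with and without a filter and on log2(TPM + 0.1), a test against the cutoff itself (glmTreat), no fold cutoff, without ribosomal RNA genes, and, chosen after seeing the data, limma on TPM scaled by TMM factors. Leaving out each library in turn gave 4 members called higher and 0 lower in both LPS comparisons, 2 to 3 higher and 2 to 3 lower for KO against WT, 1 to 3 higher and 2 lower for KOL against WTL, and 1 higher and 2 lower for the interaction. Without a fold cutoff 3 members were called lower in WTL against WT and 3 in KOL against KO. In KOL against WTL, all 4 limma fits called 1 member higher where edgeR called 3, with the calls of Socs4 and Socs7 lost. There glmTreat called 0 higher and 1 lower, Socs3. For the interaction the 4 limma fits called 1 member lower where edgeR called 2. On the TPM scale the median of all genes moved to -0.44 in WTL against WT (-0.52 with 0.1 added), -0.10 in KO against WT (-0.12) and -0.38 in KOL against KO (-0.45), and Socs7 in KOL against KO turned to -0.14, -0.15 with 0.1 added and -0.14 without a filter. The filtered values lie above the medians of their fits, and the value without a filter lies below that fit's median (-0.04). The interaction of Socs5 turned to -0.026 with scaled TPM, and that of Socs1 passed the threshold without a filter (-0.65, adjusted p = 0.044, range over the other alternatives up to 0.50). The causes were not tested.

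Counts over all genes moved by more than 1.5 times in several fits. WTL against WT (1766 higher, 1400 lower) became 770 and 1975 with limma on log2(TPM + 1), 941 and 3087 with 0.1 added, 764 and 1961 without a filter, 1242 and 590 with scaled TPM, 1227 and 580 with glmTreat, 1147 and 892 with at least 10 counts and 4209 and 4224 without a cutoff. KOL against KO (2113, 1819) became 932 and 2178, 1195 and 3202, 922 and 2171, 1444 and 996, 1469 and 940, 1394 and 1210, and 4704 and 4752 in the same order. KO against WT (2427, 2405) became 1556 and 2524, 1498 and 2544, and 1610 and 2394 in the first 3 of these fits and 1574 and 1495 with glmTreat. KOL against WTL (1751, 1752) became 1138 and 1301 with limma, 1108 and 1244 without a filter, 1028 and 978 with glmTreat and 2991 and 3266 without a cutoff. The interaction (1218, 1225) became 949 and 603, 876 and 487, and 793 and 518 in the first 3 fits, and its lower calls ranged from 671 to 2013 without single libraries: 684, 688 and 671 without WT replicates 1, 2 and 3 and 2013 without KOL replicate 2.

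With the replicate block the calls of the 8 members did not change (4 higher and 0 lower, 2 and 2, 3 and 2, 4 and 0, and 1 and 2), and the interaction gave 1041 genes higher and 1022 lower. The deviations of same-numbered libraries correlated between -0.325 and 0.126, so the numbers were not treated as pairs. Depth limits Socs1 most, which had 30 to 40 expected counts in untreated libraries.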
